A study of Mus musculus with 15 samples.

Results

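The lysosome and autophagy genes described here are 37 genes of the mouse, taken as a fixed list of symbols, of 37991 gene identifiers in the count table. All 37 were found, 35 by symbol and 2 by an older name (Tfeb as Tcfeb and Tfe3 as Tcfe3). RNA was sequenced from the whole liver of female mice on a C57BL/6 background in 3 groups of 5 animals, with 1 library per animal. Young WT mice were 90 days old and carried functional S6K1. Old WT mice were 600 days old and of the same genotype. Old KO mice were 600 days old and carried a germline deletion of S6K1 (gene Rps6kb1), bred like the WT mice from heterozygous parents. No young KO group was among the samples, so genotype was compared at 600 days alone, and a change with age could not be measured in KO mice. The labels name no drug, and all groups were kept on chow.

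Lysosomes are acidic compartments in which proteins, lipids, glycogen and worn-out organelles are broken down. Autophagy delivers cytoplasmic cargo to them: the ULK kinases start the process, a lipid kinase complex with Beclin 1 marks the forming membrane, ubiquitin-like conjugation attaches proteins of the ATG8 family (LC3 and GABARAP) to it, and cargo receptors such as p62 link the cargo to ATG8. The kinase complex mTORC1, which activates S6K1, restrains ULK1 and keeps the transcription factor TFEB in the cytoplasm, while TFEB and its relatives TFE3 and MITF bind an E-box-containing element upstream of many lysosomal genes. In the liver, autophagy and lysosomal breakdown run at a high rate in hepatocytes, and Kupffer cells, the resident macrophages, are also rich in lysosomes.

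To look for that element, the sequence upstream of their starts was read from the RefSeq promoter table (build GRCm38.p6, which differs from the mm9 build of the counts). The table held a promoter for 30 members; Ctsb, Npc1, Atp6v1h, Becn1, Atg12, Atg16l1 and Map1lc3a are the others. The 6-base E-box CACGTG, which reads the same on both strands, was present within 250 bases before the start in 12 of these 30 members (40%) and in 6.86% of the 27025 genes of the table. Its 7-base extension TCACGTG, or CACGTGA on the other strand, which always contains the E-box, was present in 9 members (30%), namely Lamp1, Mcoln1, Ctsa, Ctsd, Gaa, Gla, Atp6v1a, Atg3 and Atg7, and in 3.58% of all genes. The 6 stretches of 150 bases that end just before the start are printed here, 5′ to 3′ on the gene's own strand, with each CACGTG in capitals. Lamp1, Mcoln1, Gaa and Atg3 are shown because they hold the element in different numbers, and Wipi1 and Npc2 because they changed with age and hold none in this window.
Lamp1 (chr8:13159011-13159160, plus strand): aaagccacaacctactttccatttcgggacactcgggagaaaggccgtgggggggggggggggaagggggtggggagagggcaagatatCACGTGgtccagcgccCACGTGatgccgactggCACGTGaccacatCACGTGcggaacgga
Mcoln1 (chr8:3500369-3500518, plus strand): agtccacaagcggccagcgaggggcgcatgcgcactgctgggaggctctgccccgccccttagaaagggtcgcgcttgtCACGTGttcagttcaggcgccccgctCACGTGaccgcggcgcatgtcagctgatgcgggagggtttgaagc
Gaa (chr11:119267813-119267962, plus strand): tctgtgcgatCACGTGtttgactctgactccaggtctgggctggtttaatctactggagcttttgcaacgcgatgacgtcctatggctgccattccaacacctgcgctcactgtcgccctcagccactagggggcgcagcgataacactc
Atg3 (chr16:45158679-45158828, plus strand): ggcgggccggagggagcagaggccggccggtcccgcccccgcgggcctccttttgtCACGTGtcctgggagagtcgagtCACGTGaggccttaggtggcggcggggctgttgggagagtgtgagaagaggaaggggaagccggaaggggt
Wipi1 (chr11:109611390-109611539, minus strand): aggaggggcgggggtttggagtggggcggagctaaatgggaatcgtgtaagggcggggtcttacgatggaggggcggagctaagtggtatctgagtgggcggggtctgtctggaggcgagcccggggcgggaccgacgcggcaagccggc
Npc2 (chr12:84773113-84773262, minus strand): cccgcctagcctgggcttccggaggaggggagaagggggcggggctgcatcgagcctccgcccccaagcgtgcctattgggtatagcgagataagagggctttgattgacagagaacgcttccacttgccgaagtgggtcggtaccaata

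In Lamp1 the 4 matches began 61, 45, 28 and 15 bases before the start, in Mcoln1 the 2 matches began at 71 and 45 bases, in Atg3 at 94 and 71 bases, and in Gaa the match began at 140 bases. A match is a description of the letters and not a measured binding site.

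Total counts per library lay between 21801754 and 38065359. Levels are given as CPM, the reads of a gene as a share of the TMM-scaled library size. Rps6kb1 was between 33.3 and 41.4 CPM in the young WT group, between 34.6 and 45.3 CPM in the old WT group and between 15.2 and 20.8 CPM in the KO group, so that WT and KO livers had separate ranges (log2 fold change in the KO at 600 days -1.17 ± 0.10 SE, adjusted p = 8.54e-06). Albumin, a hepatocyte product, averaged 89810, 85060 and 98400 CPM in young WT, old WT and old KO livers. Library 6 of the young WT group, which had the lowest total count, stood apart from the other 4 young WT livers. It lay outside their range in 23 of the 37 members (62.2%) and in 55.8% of the 14258 genes tested. In 11 members (29.7%) and in 25.6% of all genes it lay outside that range and inside the range of the old WT livers. Old KO 1 and old KO 6 lay outside the range of the other KO livers in 23 and 24 members (62.2% and 64.9%), and in 48.9% and 51.5% of all genes tested. Old WT 7 lay outside the range of its group in 19 members (51.4%) and in 53.8% of all genes. For the remaining libraries these shares were 13.5% to 45.9% of members and 29.2% to 44.9% of all genes, so a large share is usual for any liver. Old WT 7 correlated least with its own group (mean Pearson r of 0.976 across genes, over 4 pairs that share this library). In the age comparison, fold changes of the members described one by one and counts of lists are given with and without young WT 6. Old WT 7, old KO 1 and old KO 6 stood apart to a similar degree. They were left out only in the fits that dropped each library in turn. Within a sentence, values of single livers follow the order young WT 1, 2, 3, 4 and 6, old WT 1, 4, 5, 7 and 10, and old KO 1, 2, 4, 5 and 6.

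**Figure D1:**
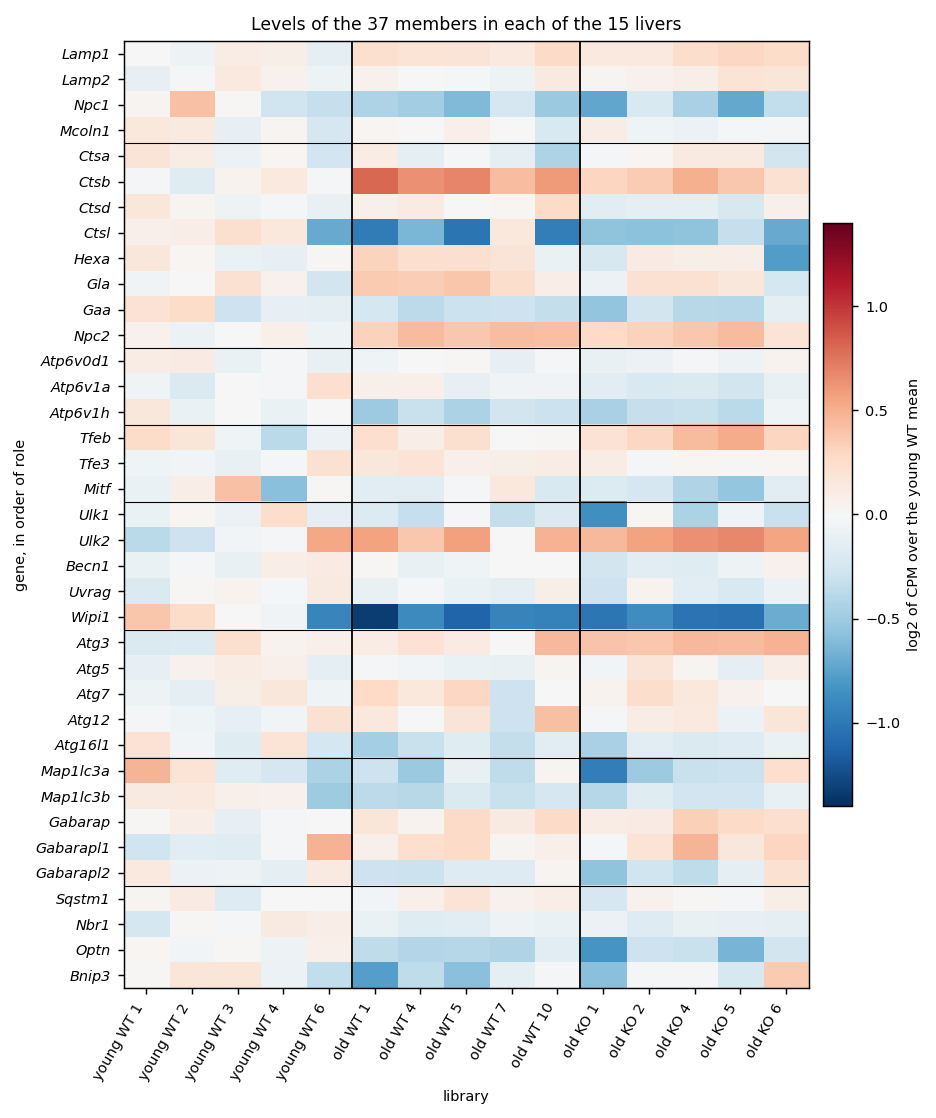
Colour gives log2 of the CPM of each member (rows, in order of role) in each liver (columns) over the young WT mean, on a scale from -1.4 to 1.4. Ctsb and Npc2 are red and Wipi1 blue across the old livers of both genotypes, and young WT 6 is blue for Wipi1, Ctsl and Map1lc3b.

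The members covered a wide range of levels. Per kilobase of exon and averaged over the 15 libraries, Ctsl (cathepsin L, a cysteine protease) was at 338 CPM per kb, Lamp1 (a main glycoprotein of the lysosomal membrane) at 250 CPM per kb and Gabarapl1 (an ATG8 protein) at 164 CPM per kb. Tfeb was at 1.04 CPM per kb and Mitf at 0.827 CPM per kb, the lowest of the 37. All 37 members passed the filter on low counts, and the lowest count of any member in any library was 92 reads. Summed over the 37 members, CPM averaged 5754 ± 262 in young WT, 5664 ± 131 in old WT and 5628 ± 253 in old KO livers (SD, n = 5 each). Young WT 6 had the lowest sum of its group, 5301 CPM, beside 5754 to 5931 CPM in the other young WT livers. The sum ranged from 5535 to 5847 CPM in old WT and from 5195 to 5808 CPM in old KO livers. Young WT 6 widens the young WT SD, so the differences between groups are not judged against it.

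The question of the first comparison was what age does to these genes in WT liver. Between 90 and 600 days, 2 members rose and 5 fell. Ctsb and Npc2, whose proteins act inside the lysosome, were higher in old WT livers, and Wipi1, Atp6v1h, Optn, Npc1 and Gaa were lower. Wipi1 fell to 0.486 of its young level and Ctsb rose 1.56-fold, while the other 5 fold changes lay between 0.731 and 1.32. The 7 members are 18.9% of the 37, beside 18.8% of all 14258 genes tested. The 2 that rose stand beside a background of 9.92% of genes higher, and the 5 that fell beside 8.91% lower. The median log2 fold change was -0.03 over the 37 members and 0.01 over all genes.

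**Figure D2:**
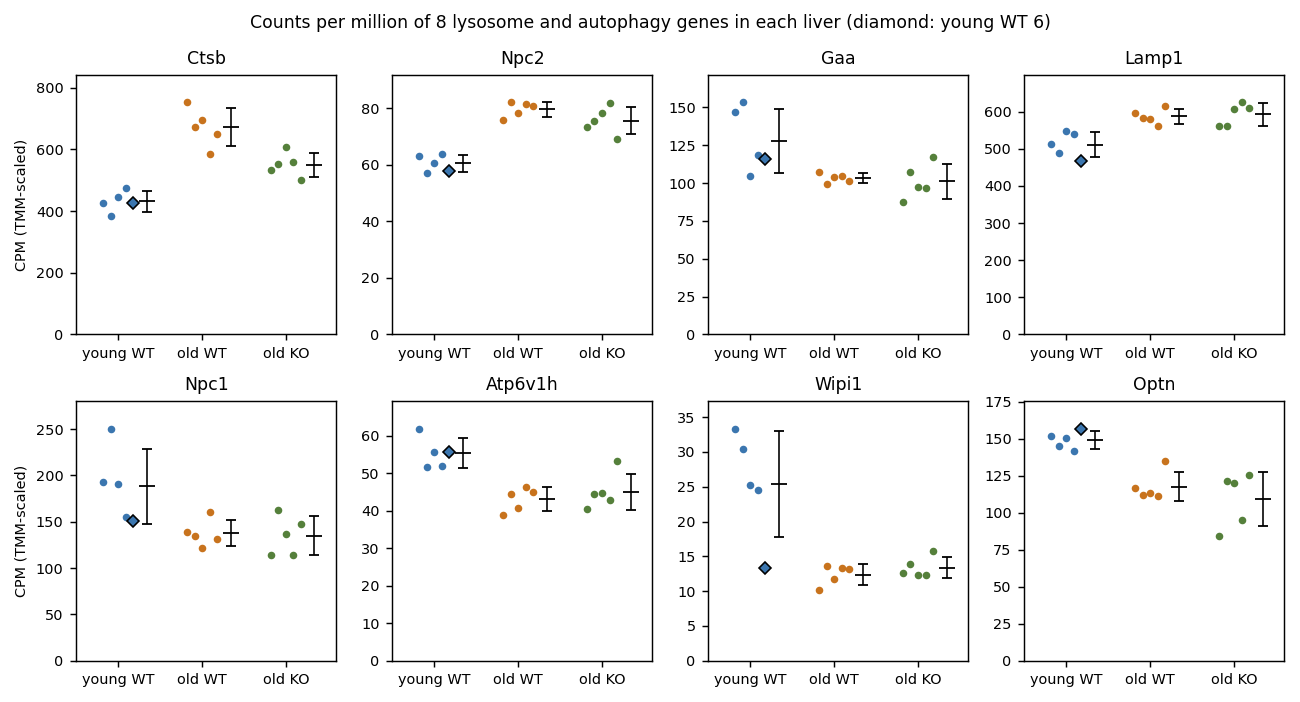
CPM (TMM-scaled) of 8 members in each liver, with the group mean and SD as a bar beside the points and young WT 6 as a diamond. All old WT livers lie above all young WT livers for Ctsb, Npc2 and Lamp1 and below them for Atp6v1h and Optn, and young WT 6 lies among the old livers for Wipi1.

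Among the proteins of the lysosomal lumen, Ctsb (ENSMUSG00000021939, cathepsin B, a cysteine protease, chromosome 14, 63741302 to 63764758 in mm9, plus strand) was at 426, 383, 445, 476 and 426 CPM in young WT and at 752, 673, 694, 584 and 651 CPM in old WT livers. The old KO livers had 533, 551, 607, 559.7 and 499.6 CPM. Every old WT liver was above every young one, and each old KO liver was above the highest young one as well. The log2 fold change with age was 0.64 ± 0.09 (SE, edgeR adjusted p = 0.000367). Without young WT 6 it was 0.64 with an adjusted p of 0.00054. Exons of Ctsb overlap those of Fdft1 on the opposite strand, and whether the counting used strand is not stated.

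Npc2 (ENSMUSG00000021242, chromosome 12, 86095510 to 86114062, minus strand) encodes the soluble protein that hands cholesterol to NPC1 for export from the lysosome. It was at 63.2, 56.9, 60.7, 63.8 and 57.7 CPM in young WT and at 75.7, 82.1, 78.3, 81.4 and 80.7 CPM in old WT livers. Old KO livers had 73.3, 75.5, 78.3, 82 and 69.2 CPM, all above the young WT range. The groups of the age comparison did not overlap, with a log2 fold change of 0.40 ± 0.06 and an adjusted p of 0.0009. Without young WT 6 the values were 0.39 and 0.00125.

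Its membrane partner Npc1, on chromosome 18, moved the other way. Npc1 was at 193, 250.4, 191, 155 and 151 CPM in young WT, at 139, 134, 122, 160 and 131 CPM in old WT, and at 114, 162, 137, 114 and 148 CPM in old KO livers. Old WT 7 lay above the 2 lowest young livers, so the ranges overlapped. With age, its log2 fold change was -0.45 ± 0.14 (adjusted p = 0.0316), and -0.51 without young WT 6 (adjusted p = 0.014). Exons of 2 genes on the opposite strand overlap Npc1.

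Gaa (ENSMUSG00000025579, chromosome 11, 119129201 to 119146768, plus strand) encodes acid alpha-glucosidase, which degrades glycogen in the lysosome. Its levels were 147, 153, 104, 118 and 116 CPM in young WT, 107, 99.2, 104, 105 and 101 CPM in old WT, and 87.3, 107, 97.4, 96.7 and 117 CPM in old KO livers. Young WT 1 and 2 were high, and young WT 3 lay within the old WT range. For Gaa the log2 fold change with age was -0.31 ± 0.10 (adjusted p = 0.0485), and -0.33 without young WT 6 (adjusted p = 0.0371).

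Atp6v1h (ENSMUSG00000033793, chromosome 1, 5073254 to 5152630, plus strand) encodes the H subunit of the proton pump that acidifies the lysosome. It was at 61.9, 51.8, 55.7, 52 and 55.7 CPM in young WT, at 38.8, 44.6, 40.8, 46.3 and 44.9 CPM in old WT, and at 40.5, 44.4, 44.8, 42.8 and 53.2 CPM in old KO livers. Every old WT liver was below every young one, and among the old KO livers only number 6 was within the young range. The log2 fold change with age was -0.36 ± 0.08 (adjusted p = 0.00659), and -0.35 without young WT 6 (adjusted p = 0.00893). The other 2 pump subunits, Atp6v0d1 of the membrane sector and Atp6v1a, the catalytic subunit, had group means within 28.6 to 29.4 and 8.79 to 9.98 CPM per kb and did not pass the test with age.

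Wipi1 (ENSMUSG00000041895, chromosome 11, 109434645 to 109473281, minus strand) encodes a WD-repeat protein that binds the phosphoinositide marking the forming autophagosome. It was at 33.3, 30.4, 25.3, 24.6 and 13.4 CPM in young WT, at 10.1, 13.6, 11.7, 13.3 and 13.2 CPM in old WT, and at 12.6, 13.9, 12.4, 12.3 and 15.7 CPM in old KO livers. Young WT 6 was alone among the young livers in lying within the range of the old ones. Wipi1 had a log2 fold change with age of -1.04 ± 0.18 (adjusted p = 0.00154). Without young WT 6 it was -1.19 ± 0.11 (adjusted p = 4.4e-05).

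Optn (ENSMUSG00000026672, chromosome 2, 4941688 to 4985097, minus strand) encodes optineurin, a cargo receptor for ubiquitin-marked mitochondria and bacteria. It was at 152, 145, 150.3, 142 and 157 CPM in young WT, at 116, 112, 113, 112 and 135 CPM in old WT, and at 84.2, 122, 119.9, 94.9 and 125 CPM in old KO livers. No old liver of either genotype reached the lowest young value. The log2 fold change with age was -0.34 ± 0.10 (adjusted p = 0.0291), and -0.32 without young WT 6 (adjusted p = 0.0475). An exon of another gene on the opposite strand overlaps Optn.

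Lamp1 (ENSMUSG00000031447, chromosome 8, 13159135 to 13175338, plus strand) was at 513, 487, 549, 541 and 467 CPM in young WT, at 597, 583, 580.5, 562 and 614 CPM in old WT, and at 560.1, 560.3, 608, 625 and 609 CPM in old KO livers. The ranges of the age comparison did not overlap, but the log2 fold change of 0.20 ± 0.07 did not pass in edgeR (adjusted p = 0.0624). DESeq2 called it (adjusted p = 0.00966), and without young WT 6 the edgeR values were 0.18 and an adjusted p of 0.0892. Exons of Grtp1 overlap Lamp1 on the opposite strand. The old and young WT ranges were separate in 5 of the 37 members (Ctsb, Npc2, Lamp1, Atp6v1h and Optn), beside 11.5% of all genes tested.

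Of the 7 calls, those of Ctsb, Npc2, Atp6v1h and Wipi1 held in all 15 fits that left out 1 library. Npc1 passed in 8 of these fits, Optn in 9 and Gaa in 4, with adjusted p-values of up to 0.0888, 0.071 and 0.133. The call was lost for Npc1 without young WT 1, 2 or 3 or old WT 1, 4, 5 or 10, for Optn without young WT 1 or 3 or old WT 1, 4, 5 or 7, and for Gaa without any library other than young WT 3 or 6 or old KO 1 or 6.

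The other members are described by role. Of the 4 membrane proteins, Lamp2 and Mcoln1 (a calcium channel) had group means within 79.6 to 86 and 7.24 to 7.35 CPM per kb. Among the lumen enzymes, Ctsa, Ctsd, Hexa and Gla, whose products cleave proteins, gangliosides and globosides, did not pass the test with age. The 3 MiT/TFE transcription factors had log2 fold changes with age between -0.07 and 0.12, none of them past the threshold in edgeR, DESeq2 or limma voom and 0 with an unadjusted p under 0.05. Of the 5 genes of initiation and membrane nucleation, Wipi1 alone passed in edgeR, and DESeq2 and limma voom also called Ulk2. The 5 genes of the conjugation machinery lay between -0.28 and 0.18, and the 5 ATG8 genes between -0.30 and 0.18, with no call in edgeR or limma voom. DESeq2 called 1 conjugation gene (Atg16l1) and 2 ATG8 genes (Map1lc3b and Gabarap), beside 22.8% of all genes tested. In edgeR 1 conjugation gene and 2 ATG8 genes had an unadjusted p under 0.05 with age. Over all roles 14 members (37.8%) were under that limit with age, beside 33% of all genes tested. Roles of so few genes cannot be told apart from these shares. The ATG8 genes are close paralogs, and how reads shared between such genes were counted is not stated. Among the cargo receptors, Sqstm1 (p62), Nbr1 and Bnip3 did not pass.

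**Figure D3:**
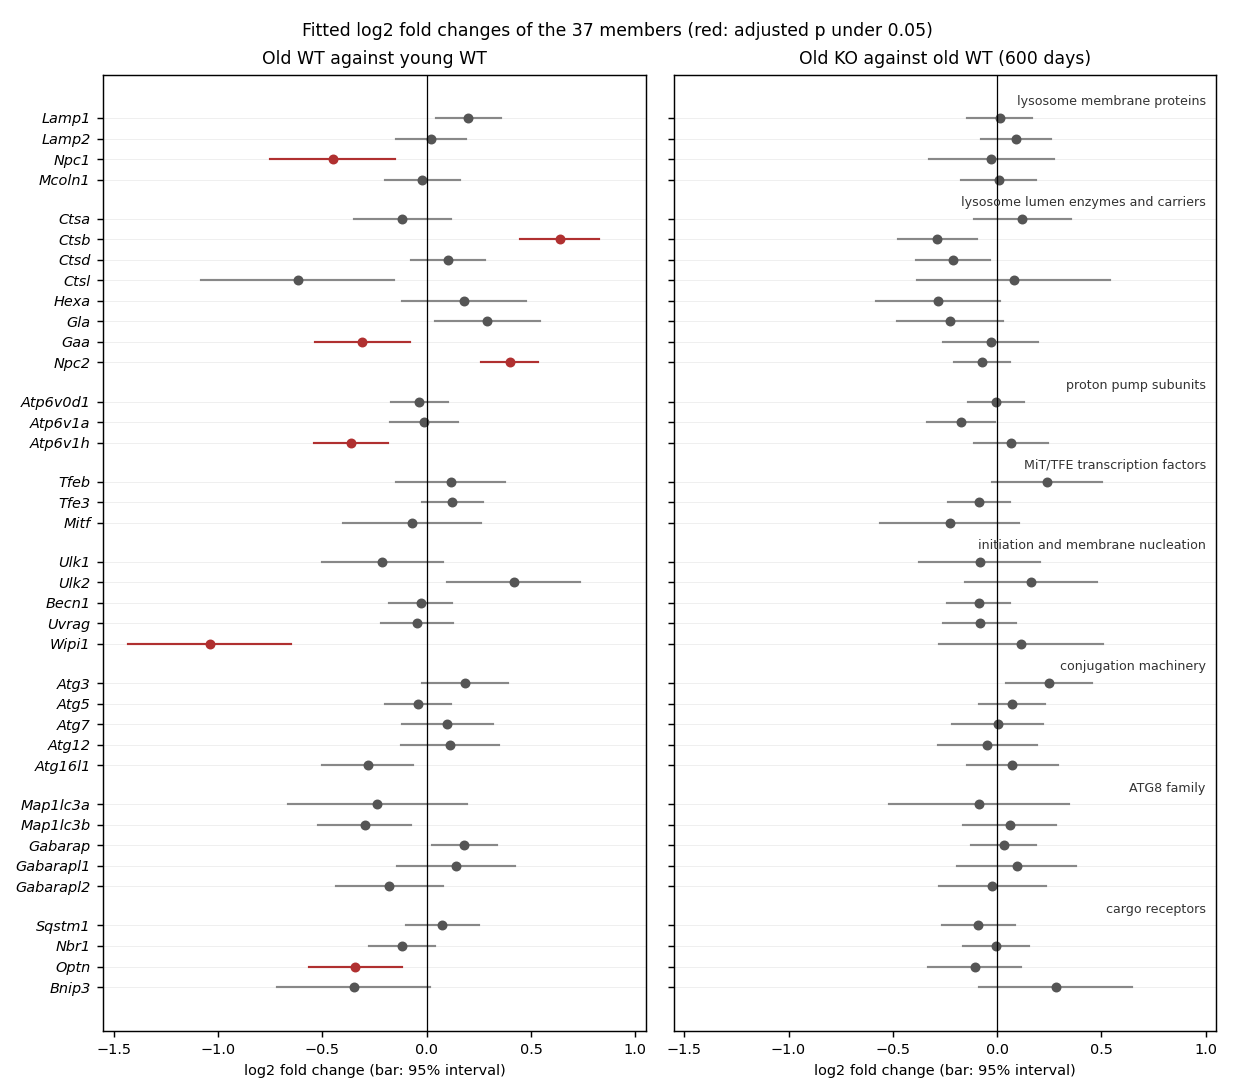
Fitted log2 fold changes (points) with 95% intervals (bars) of the 37 members, grouped by role, for old WT against young WT (left) and old KO against old WT (right), with adjusted p under 0.05 in red. On the left 7 members are red, from -1.04 for Wipi1 to 0.64 for Ctsb, and on the right none.

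Several members had 4 young WT livers close together and young WT 6 apart from them, on the side of the old livers. Ctsl was at 896, 909, 1000, 946 and 525 CPM in young WT and at 434, 548, 420.1, 945 and 437 CPM in old WT livers. Old KO livers had 579, 575, 577, 684 and 526 CPM. In each WT group 1 liver was at the level of the other age, young WT 6 low and old WT 7 high. Over all libraries the log2 fold change of Ctsl with age was -0.62 ± 0.21 (adjusted p = 0.0525). It was -0.75 without young WT 6 (adjusted p = 0.0141) and -0.89 without old WT 7 (adjusted p = 0.00179). Ctsl, and Map1lc3b and Ulk2 below, were singled out because such a liver stood apart in them. Leaving that liver out narrows the spread of its group, so these fits are descriptions and no added support for a change with age.

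Map1lc3b, which encodes the LC3 protein commonly used to count autophagosomes, was at 77.7, 78.6, 75, 74.3 and 50.5 CPM in young WT and at 55, 54.5, 61.9, 57.5 and 60.7 CPM in old WT livers. The old KO livers had 54.1, 63.1, 59.1, 59.3 and 66.4 CPM. Apart from young WT 6, every young liver was above every old one. Young WT 6 itself was below every old liver of both genotypes. For Map1lc3b the log2 fold change with age was -0.30 ± 0.10 (adjusted p = 0.0534), and without young WT 6 it was -0.39 (adjusted p = 0.00143).

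Ulk2, a kinase that starts autophagy, was at 38.5, 41.1, 48.9, 49 and 72.7 CPM in young WT and at 73.9, 65.1, 74.3, 50.4 and 69.9 CPM in old WT livers. Old KO livers had 68.4, 73.9, 77.9, 79.6 and 73.5 CPM. As for Ctsl, young WT 6 and old WT 7 each lay near the level of the other age. Ulk2 had a log2 fold change with age of 0.42 ± 0.15 (adjusted p = 0.0563), with 0.60 and an adjusted p of 0.00227 without young WT 6. DESeq2 (adjusted p = 0.0417) and limma voom (adjusted p = 0.0425) called it over all libraries.

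Without young WT 6, 13 members passed the test with age in place of 7. They were the same 7 with Ctsl, Map1lc3b and Ulk2 and with Tfe3 (0.19, adjusted p = 0.0277), Atg16l1 (-0.33, adjusted p = 0.024) and Gabarapl1 (0.30, adjusted p = 0.0391), the values being log2 fold changes. The 13 were 35.1% of the members, beside 22.8% of the 14412 genes tested in that fit (3284 genes). Young WT 6 stood apart in several of these members, and leaving it out narrows the young WT spread. The larger share is therefore a description and no added support for a change with age in any of the 13. With all libraries the shares were 18.9% of members and 18.8% of genes (2685 genes). Without old WT 7 the count of members was again 7 (18.9%, beside 18.9% of all genes), with Ctsl and Ulk2 in place of Optn and Gaa.

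The second comparison asked what loss of S6K1 does to these genes at 600 days. No member passed the test in edgeR, beside 0.533% of all genes tested. Fitted log2 fold changes (old KO over old WT) lay between -0.29 and 0.28, with 17 members on the higher and 20 on the lower side, and the median was -0.01. Of the 8 lumen members 2 were on the higher side, with a median of -0.14. Medians of the other roles lay between -0.09 and 0.07. The 95% intervals of all 37 members lay within -0.58 and 0.65 on the log2 scale. The 2 old groups overlapped in every member, beside 3.19% of all genes with separate ranges there. At a share this low few or none of 37 genes would separate, so this is no result about the members. At an unadjusted p under 0.05 there were 4 members (10.8%), Ctsb, Ctsd, Atp6v1a and Atg3, beside 11.6% of all genes tested. DESeq2 called 1 member (Ctsb, adjusted p = 0.0364) and limma voom called 0.

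Ctsb in the values given above was lower in the KO group, with the highest KO liver (607 CPM) above the lowest old WT liver (584 CPM) and the other 4 KO livers below all old WT livers. Its log2 fold change was -0.29 ± 0.09 (unadjusted p = 0.00442, adjusted p = 0.17). Ctsd, cathepsin D, an aspartic protease, was at 345, 357, 331, 337 and 397 CPM in old WT and at 298, 299, 301, 282 and 345 CPM in old KO livers. Its 4 lower KO livers lay below the old WT range, and the log2 fold change was -0.21 ± 0.08 (adjusted p = 0.297). Reads of Ctsd can be shared with an overlapping gene on the same strand, 6330512M04Rik.

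Atp6v1a was at 63.4, 63.3, 55.9, 58.2 and 58.3 CPM in old WT and at 54.2, 52.2, 52.5, 50.4 and 56.3 CPM in old KO livers. KO 6 was the KO liver within the old WT range, and the log2 fold change was -0.17 ± 0.07 (adjusted p = 0.382). Atg3, the enzyme that transfers ATG8 proteins to the lipid, was at 85.9, 92.1, 86.1, 79.7 and 109 CPM in old WT and at 105, 103, 109, 108 and 112 CPM in old KO livers. Old WT 10 was within the KO range and the other 4 old WT livers were below it, with a log2 fold change of 0.25 ± 0.09 (adjusted p = 0.297).

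Macrophage markers differed between the same groups. Old WT livers had 426 to 879 CPM summed over 20 macrophage and Kupffer cell genes, old KO livers 228 to 389 CPM, and 8 of the 20 passed the test in edgeR, all lower, with 10 calls in DESeq2 and 2 in limma voom. Of the 20, 19 had a log2 fold change below 0, with a median of -1.02. The defining markers were detected in all groups. Adgre1 averaged 19.1 CPM in old WT and 8.3 CPM in old KO, Cd68 11.4 and 5.01 CPM, and Clec4f 90 and 37.4 CPM. With whole liver, fewer cells of a type and less RNA per cell cannot be told apart. In young WT livers the marker sum was 296 to 650.2 CPM, which overlapped old WT, and with age 3 of the 20 markers rose and 1 fell in edgeR, with 9 calls in DESeq2, 8 in limma voom and 11 at an unadjusted p under 0.05. With age 17 of the 20 had a log2 fold change above 0, with a median of 0.47, and without young WT 6 the counts in edgeR were 7 higher and 1 lower. The part of these markers in the values of Ctsb and Ctsd was not tested. The sum over 12 hepatocyte markers ranged from 107100 to 156300 CPM among old WT livers and from 130300 to 165000 CPM among old KO livers, and none of the 12 passed with genotype in edgeR, DESeq2 or limma voom, with 1 at an unadjusted p under 0.05. With age, 1 hepatocyte marker rose and 2 fell, or 3 without young WT 6.

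Markers of other cells were measured too. Summed CPM in young WT, old WT and old KO livers was 335 to 431, 262 to 407 and 256 to 472 for 10 stellate cell and fibroblast markers, and 196 to 374, 164 to 287 and 209.8 to 237 for 8 endothelial markers. For 7 T cell markers it was 2.62 to 6.03, 3.52 to 11.3 and 2.35 to 7.26 CPM, for 5 B cell markers 3.81 to 7.89, 5.36 to 16.4 and 4.02 to 9.58 CPM, and for 5 bile duct markers 29.7 to 51, 38.7 to 106 and 38.5 to 94.6 CPM. With genotype none of the markers in these 5 lists passed in edgeR, DESeq2 or limma voom, and at an unadjusted p under 0.05 there were 1 T cell and 2 B cell markers. All 7 T cell and all 5 B cell markers had a log2 fold change below 0 with genotype, with a median of -0.68 in both lists. With age, 1 stellate, 2 T cell, 1 B cell and 1 bile duct marker rose, and 2 stellate and 2 endothelial markers fell, and without young WT 6 these counts were the same.

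**Figure D4:**
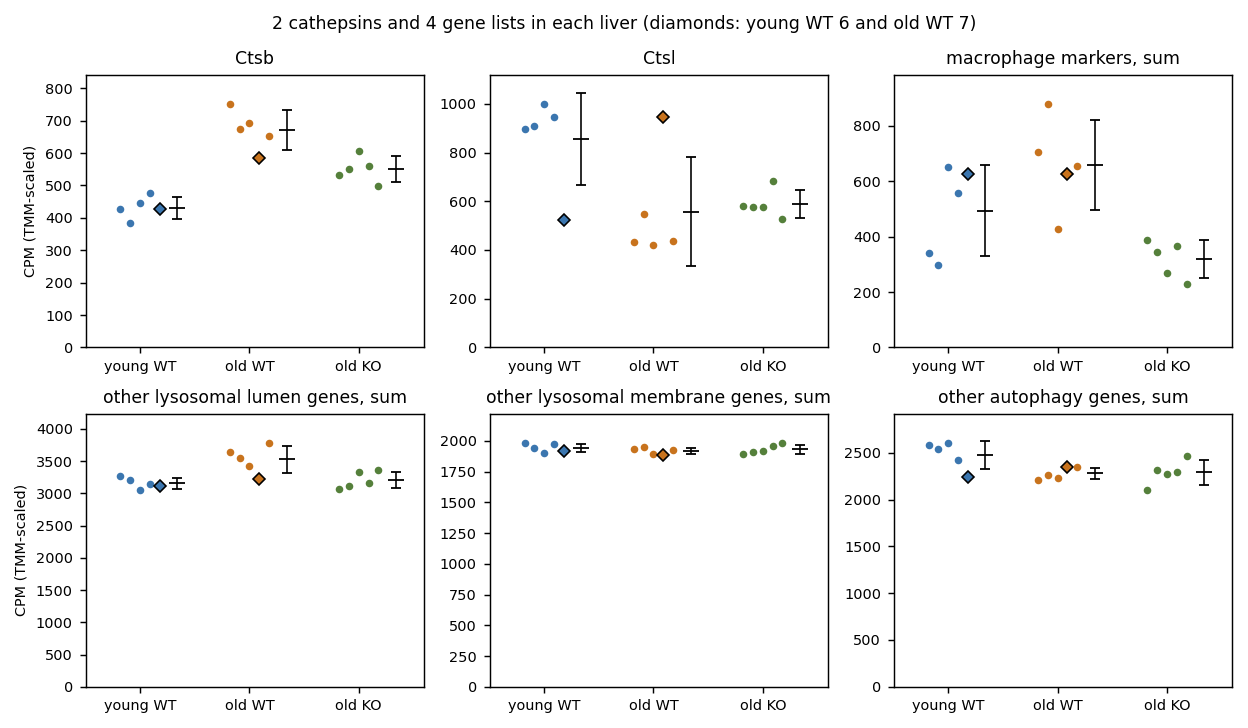
CPM (TMM-scaled) of Ctsb and Ctsl and the summed CPM of 4 gene lists in each liver, with group mean and SD as a bar beside the points and young WT 6 and old WT 7 as diamonds. Macrophage markers lie between 228 and 389 CPM in all old KO livers, below every old WT liver, and the lists of other lysosomal membrane and other autophagy genes overlap between all groups.

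The third comparison set old KO beside young WT livers. It shares its libraries with the other comparisons and is not independent of them. In it 12 of the 37 members passed (32.4%), beside 23.3% of all genes. The 7 higher members, beside 12.0% of genes higher, were Ctsb (0.35), Npc2 (0.32), Lamp1 (0.21), Gabarap (0.21), Tfeb (0.35), Ulk2 (0.58) and Atg3 (0.43). The 5 lower ones, beside 11.3% of genes lower, were Npc1 (-0.48), Gaa (-0.34), Atp6v1h (-0.30), Wipi1 (-0.93) and Optn (-0.45), all values being log2 fold changes. These 5 and Ctsb and Npc2 are the 7 members called between old WT and young WT, where their log2 fold changes were -0.45, -0.31, -0.36, -1.04, -0.34, 0.64 and 0.40 in the same order.

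Atg3 was at 69.4, 70.1, 93.4, 82.4 and 83.6 CPM in young WT livers, all below the KO livers. Its difference from young WT was 0.43 ± 0.09 on the log2 scale in old KO (adjusted p = 0.00449) and 0.18 in old WT livers (adjusted p = 0.185). Tfeb, the factor that induces lysosomal genes, was at 6.31, 5.95, 5.05, 4.07 and 5 CPM in young WT, at 6.21, 5.62, 6.17, 5.24 and 5.33 CPM in old WT, and at 6.06, 6.46, 7.15, 7.54 and 6.49 CPM in old KO livers. Old KO 1 lay within the range of the young livers and the other 4 above it. Against young WT it was higher by 0.35 ± 0.12 on the log2 scale (adjusted p = 0.0457), and against old WT the difference was 0.24 ± 0.12 (adjusted p = 0.472). Gabarap, an ATG8 protein, was at 156, 164, 142, 152 and 155 CPM in young WT, at 173, 159, 186, 168 and 184 CPM in old WT, and at 165, 166, 194, 185 and 181 CPM in old KO livers. Its log2 fold change of 0.21 ± 0.07 between old KO and young WT had an adjusted p of 0.0425. Of the 12 calls, 5 were lost in some of the 15 fits that left out 1 library. Tfeb held in 4 of them (without young WT 1 or 2, old WT 7 or old KO 1, adjusted p up to 0.112 in the others), Lamp1 in 5 (without young WT 3, old WT 7 or 10 or old KO 1 or 2, up to 0.0988 in the others) and Gabarap in 8 (lost without young WT 1, 3 or 4, old WT 1 or old KO 4, 5 or 6, up to 0.112). Npc1 was lost without young WT 2 or old KO 1 or 5 (up to 0.0559), and Gaa without young WT 1 or 2 or old KO 1, 4 or 5 (up to 0.0781).

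Other genes of the same pathways were counted from 3 lists that do not include the members. Of 46 other lysosomal hydrolases and luminal proteins, all of them tested, 12 rose and 2 fell between young and old WT, with a median log2 fold change of 0.16. Over all genes tested 9.92% rose and 8.91% fell. Without young WT 6 the counts of the list were 15 and 4, beside 1751 and 1533 of 14412 genes. Young WT livers had a summed CPM of 3054 to 3263, old WT livers 3229 to 3779 and old KO livers 3070 to 3358. The largest rises were those of Ctsc (cathepsin C, 94.3 to 169.9 CPM in young and 170 to 269 CPM in old WT, log2 fold change 0.86, adjusted p = 0.0034), Gm2a (the activator of ganglioside breakdown, 0.81, adjusted p = 0.000523) and Pla2g15 (a lysosomal phospholipase, 0.71, adjusted p = 0.00149). The 2 that fell were Idua (-0.40, adjusted p = 0.0341) and Ctsf (-0.35, adjusted p = 0.0267). Between old KO and old WT 1 of the 46 passed, Lgmn (legumain, an asparaginyl protease), which ranged from 48.4 to 77.3 CPM among WT livers and from 33.7 to 44.1 CPM among KO livers (-0.68 ± 0.14, adjusted p = 0.0377). In limma voom 0 of the 46 passed with genotype, and 2 in DESeq2. At an unadjusted p under 0.05 there were 8 of the 46, beside 11.6% of all genes tested. With genotype 28 of the 46 had a log2 fold change below 0 and 18 above, with a median of -0.05.

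Of 36 other lysosomal membrane proteins and pump subunits 35 were tested, of which 4 rose and 4 fell with age, or 5 and 6 without young WT 6. The shares over all genes were 9.92% higher and 8.91% lower with age. With genotype none of these passed in edgeR or limma voom and 2 in DESeq2, with 4 at an unadjusted p under 0.05. Cd63, a lysosomal tetraspanin, ranged from 1.51 to 1.79 CPM among young and from 2.57 to 5.16 CPM among old WT livers (1.09 ± 0.23, adjusted p = 0.00537), and the other risers among the 3 largest were Slc36a1 (0.63, adjusted p = 0.00427) and Atp6v1g1 (0.28, adjusted p = 0.0201). Slc38a9 (-0.37, adjusted p = 0.0305), Atp6v0a1 (-0.35, adjusted p = 0.00457) and Atp6v0c (-0.30, adjusted p = 0.0467) fell, the last 2 being subunits of the pump's membrane sector. Of 45 other autophagy genes 44 were tested, of which 5 rose and 4 fell with age, beside the same shares over all genes, or 5 and 8 without young WT 6. None of them passed with genotype in edgeR, DESeq2 or limma voom, with 5 at an unadjusted p under 0.05. Fam134b, a receptor for autophagy of the endoplasmic reticulum, ranged from 75.7 to 212 CPM among young and from 48.2 to 96.2 CPM among old WT livers (-1.18 ± 0.27, adjusted p = 0.00698). Atg16l2 (-0.88, adjusted p = 0.0327) and Atg2a (-0.72, adjusted p = 0.00639) fell as well, and the largest rises were Zfyve1 (0.36, adjusted p = 0.035), Atg4c (0.34, adjusted p = 0.0445) and Snap29 (0.29, adjusted p = 0.046).

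The promoter letters were set beside the fold changes. Of the 9 members with the 7-base element, 1 (Gaa, which fell) passed with age and 0 with genotype, and of the 21 with a promoter and no such element, 3 passed with age (Npc2, Wipi1 and Optn) and 0 with genotype. Ctsb, Npc1 and Atp6v1h also passed with age, but had no promoter in the table and are in neither group. Median log2 fold changes with age were 0.10 over the 9 and -0.04 over the 21, and with genotype 0.002 over the 9 and -0.005 over the 21. Over all genes tested 18.8% passed with age and 0.533% with genotype. Without young WT 6, 1 of the 9 (Gaa) and 8 of the 21 passed with age, beside 22.8% of all genes, with medians of 0.08 and -0.05. The 8 include Ctsl, Map1lc3b, Tfe3 and Gabarapl1, in which young WT 6 stood apart. Leaving that liver out narrows the young WT spread in them, so the 2 counts are not read as a difference between promoters. These are descriptions of few genes and no test was made.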

How the data were processed

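RNA sequencing of whole liver gave 15 libraries, 1 per animal, grouped by the sample titles. The authors prepared stranded poly(A) libraries, aligned single-end reads to mm9 with TopHat (TopHat2 2.0.11 in the submitters' processing notes, which also list DESeq2 1.18.1) and deposited raw read counts per gene made with HTSeq. The annotation and the strand setting are not given in the sources used here, so counts of overlapping genes and paralogs are uncertain. Totals per library were 21801754 to 38065359 counts.

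Counts were fitted with edgeR 4.0.16 (R 4.3.3, TMM scaling, filterByExpr, glmQLFit and glmQLFTest) over all 15 libraries. P-values were adjusted by Benjamini-Hochberg over 14258 genes at a threshold of 0.05, and every adjusted p is from this fit unless another tool is named. CPM used TMM-scaled library sizes. The SE is the log2 fold change divided by the square root of F, and 95% intervals used the t quantile for 12 degrees of freedom. Positions are from GENCODE M1 on mm9. On simulated counts for the age comparison (14124 genes, 200 changed) the fit recovered 72% of 2-fold and 42% of 1.5-fold changes with 8 false calls. In the data 2685 genes passed with age, and the simulated counts held no library made to stand apart. These rates therefore check the code and do not give the share of changes recovered in the livers.

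The members and lists were chosen with earlier results of these data known. Full values are given for members that passed or whose ranges did not overlap with age or genotype, and Ctsl, Map1lc3b, Ulk2, Tfe3, Atg16l1, Gabarapl1, Ctsd, Atp6v1a, Atg3, Tfeb and Gabarap were singled out after their values were seen. Lists of 194 other lysosome and autophagy genes and cell type markers (macrophage, hepatocyte, stellate, endothelial, T, B and bile duct cells) all matched. From the lists of lysosome and autophagy genes, up to 3 rises and 3 falls per comparison are named. Alternatives were DESeq2 size factors, upper quartile scaling, no filter or at least 10 counts in every library, DESeq2 1.42.0, limma voom 3.58.1, fits of 2 groups only, the replicate number as a block, and leaving out each library. The counts of lists and promoter groups without young WT 6 were added after seeing the data. Within groups no library was a repeat of another: counts of all 30 same-group pairs differed by more than sampling error (19.7 to 129 chi-square units for each degree of freedom). Pairs across groups were not checked in this way.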

Additional observations from a re-analysis of the deposited data

Results flagged for a closer look

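In 111 groups of 5 livers (37 members in 3 groups), 6 held a liver whose gap to the nearest other was more than 0.71 of the group's whole range. For independent groups chance flags about 1 in 20, or 5.55 of 111. The members were measured in the same livers, so the groups are not independent. Whether 6 differs from chance cannot be told from this count. Young WT 6 accounts for 4 of the 6. In that liver Ctsl was at 525 CPM beside 896 to 1000 CPM in the other young livers, Map1lc3b at 50.5 CPM beside 74.3 to 78.6 CPM, Tfe3 at 27.5 CPM beside 22 to 23.2 CPM, and Gabarapl1 at 370.2 CPM beside 218 to 262 CPM. Ctsl in old WT 7 was at 945 CPM beside 420.1 to 548 CPM in the other old WT livers. Optn in old WT 10 was at 135 CPM beside 112 to 116 CPM.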

How the results depend on the processing

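The number of members called with age was 7, and it was 6 to 8 in 6 alternatives. It was 13 with DESeq2 (35.1%, beside 22.8% of all genes). With the replicate block it was 2, Ctsb and Ctsl (5.41%, beside 6.31% of all genes). All 7 were among the 13 of DESeq2. Leaving out 1 library at a time gave 4 to 13 members, with 4 without young WT 1, old WT 1, old WT 4 or old WT 5 and 13 without young WT 6. Ctsb, Npc2, Atp6v1h and Wipi1 were called in every such fit. Over all genes, 2685 passed with age, 3249 in DESeq2, 899 with the replicate block, and 1748 (without young WT 1) to 3284 (without young WT 6) with 1 library left out. With genotype 76 genes passed, 309 in DESeq2, 23 in limma voom and 6 with the replicate block, and 9 to 108 with 1 library left out, with fewer than 76 by over 1.5 times without young WT 4 (41), old WT 1 (10), 4 (9), 7 (37) or 10 (42) or old KO 2 (13), 4 (14), 5 (17) or 6 (13). The member count with genotype was 0 in all of these except DESeq2, with 1. Old KO against young WT called 12 members, 8 with the replicate block, and 7 (without old KO 5) to 13 with 1 library left out. Same-numbered livers of different groups did not deviate together (correlations across genes of -0.154 to 0.077), so the numbers are not taken to pair the animals, and what the block removes was not tested. Rps6kb1 stayed between -1.26 and -1.11 in every fit.

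With age, 33 of the 37 members kept their direction in all 8 alternatives and 32 in all 15 fits without 1 library, with genotype 32 and 24. Among the members given with fold changes, the following turned. Atp6v1a with age turned with the block (0.077) and ranged from -0.0582 to 0.0587 without 1 library. With genotype, Lamp1 turned under upper quartile scaling (-0.00637) and Gabarapl1 with the block (-0.028). Without 1 library, log2 fold changes with genotype ranged from -0.0146 to 0.0321 for Lamp1, -0.108 to 0.0287 for Npc1, -0.0887 to 0.0174 for Gaa, -0.00501 to 0.0581 for Gabarap and -0.00749 to 0.35 for Ctsl.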
